A study of Mus musculus with 4 samples.

Results

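The cytosolic chaperonin CCT (also called TRiC) is described here through the 9 mouse genes that encode its subunits, as measured by RNA-Seq in motor neurons of SOD1-YFP transgenic mice. The 9 genes were chosen by symbol (Tcp1, Cct2, Cct3, Cct4, Cct5, Cct6a, Cct6b, Cct7 and Cct8) among the 27189 genes listed in each library, and no measured value entered the choice. Each symbol had a single entry in the files. The 8 genes other than Cct6b encode the 8 kinds of subunit of the CCT ring, with Cct6a as the common zeta form, and are called ring subunits below.

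CCT is an ATP-driven folding machine built of stacked rings, in which each ring holds a single copy of every subunit in a fixed order. It folds actin and tubulin, which have few other routes to their native state, as well as many proteins with WD40 propellers, and the cofactor prefoldin hands substrates to it. Motor neurons depend on large amounts of tubulin for their axons, and mutations in Cct4 or Cct5 have been described in hereditary sensory neuropathies.

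Large cell bodies of the ventral horn were laser captured from spinal cord sections of mice at 3 months of age, with RNA from 3000 to 4000 cell bodies of 1 animal in each library. The 2 WT libraries came from strain 592, which carries the human wild-type SOD1 gene fused to YFP, and the 2 G85R libraries from strain 737, which carries the same fusion with the G85R mutation of familial amyotrophic lateral sclerosis. In both strains the transgene was a genomic fragment of human SOD1 on a C57BL/6J x SJL/J background, and all animals also kept the mouse Sod1 gene. Each strain descends from its own founder and the strains also differ in transgene copy number, so that mutation, copy number and founder line cannot be told apart. Cells with large fluorescent aggregates were left out of the capture in the G85R animals.

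Values are RPKM (reads per kilobase of transcript, scaled to the mapped reads of the library), so that levels of different subunits can be set side by side. The RPKM divided by the value of 1 read gave between 21560318 and 25186594 estimated reads on genes per library. The motor neuron markers were abundant in all 4 libraries, with a summed level of 2455 to 2710 RPKM over 7 genes in WT and 2194 to 2558 RPKM in G85R. Oligodendrocyte markers summed to 807 to 860 RPKM in WT and 786 to 1027 in G85R, astrocyte markers to 30.5 to 36.3 and 47.4 to 117, and microglial markers to 13.9 to 15.7 and 16.7 to 33.5. Among the astrocyte markers, Gfap differed most, at 11.5 and 17.1 RPKM in WT and 91.9 and 28.4 RPKM in G85R. The others had log2 fold changes from -0.03 (Aldh1l1) to 0.65 (Slc1a3). Among the tested microglial markers, C1qa differed most, at 3.29 and 3.24 RPKM in WT and 11.0 and 4.14 RPKM in G85R. Cx3cr1 differed least, by 0.06 on the log2 scale. None of the tested glial markers was called by limma. Hemoglobin Hbb-b1 stood at 1.75 and 2.00 RPKM in WT and 10.7 and 10.2 RPKM in G85R. Limma called it, the only red blood cell marker tested, at a log2 fold change of 2.42 (adjusted p = 0.00173, limma). No marker of any of these cells was at 0 in all 4 libraries. The part of these other cells in the levels of CCT was not tested, and in RNA from pooled cells, fewer cells of a type and less RNA per cell cannot be told apart.

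The subunits are related proteins, and whether reads can tell their genes apart bears on every level given here. Aligned over their coding sequences, Cct6a and Cct6b, which encode alternative forms of the zeta subunit, were identical at 74.1% of bases, while the other 35 pairs of members were identical at 53.0% to 59.9%. The longest run of identical coding bases was 20 between Cct6a and Cct6b and at most 17 in any other pair, well short of a read of 75 bases. The stretch around that run is shown because it holds the longest identical run between the genes for the zeta subunit. It covers coding bases 194 to 223 of the NCBIM37 transcripts, with the 3 differing bases in capitals:
Cct6a: atgaAatgcaaattcaacacccaacAgcCt
Cct6b: atgaGatgcaaattcaacacccaacGgcTt
Over all aligned stretches of 75 bases, Cct6a and Cct6b differed at 9 to 45 bases, more than the 2 mismatches allowed in the search below.

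A window of 75 transcript bases was counted as unique when it had no copy in the NCBIM37 genome outside its own gene. Of all windows of each member, 100% were unique for Cct2, Cct3, Cct5, Cct6a, Cct6b, Cct7 and Cct8. The share was 99.1% for Cct4 and 89.9% for Tcp1. When up to 2 mismatches were allowed, it was 96.2% for Cct4, 91.1% for Cct3, 90.5% for Cct7 and 82.1% for Tcp1, and still 100% for the other 5 members. Divided by the shares found without mismatches, the mean level of Tcp1 went from 139 to 155, above Cct3 at 149.8, while the other places in the order of levels given below stayed as they were. Divided by the shares within 2 mismatches, Tcp1 was at 169, above both Cct2 at 168 and Cct3 at 164, so that its place below them depends on how shared sequence is treated.

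The members are scattered over the genome, each at its own locus. On NCBIM37, Tcp1 lies at chr17:13108567-13117933, Cct2 at chr10:116488054-116500870, Cct3 at chr3:88101038-88125689 and Cct4 at chr11:22890519-22903780. Cct5 lies at chr15:31520555-31531602, Cct6a at chr5:130293315-130321696, Cct6b at chr11:82532752-82577823, Cct7 at chr6:85401499-85418471 and Cct8 at chr16:87483570-87496114. Only Cct4 and Cct6b share a chromosome, and they lie on opposite strands. Of the 9 members, 6 (66.7%) had a protein-coding gene on the opposite strand starting within 1000 bases of their own start, compared with 10.8% of 22367 protein-coding genes. These divergent partners were Mrpl18 for Tcp1, 1700021C14Rik for Cct3, Fam173b for Cct5, Psph for Cct6a, Zfp830 for Cct6b and 1700040I03Rik for Cct7. The 4 partners found in the files were all listed far below the member they face, the highest being Mrpl18, a protein of the mitochondrial ribosome, at a mean of 39.5 RPKM. Exons of Tcp1 overlapped those of Acat3 on the other strand by 571 bases and those of Mrpl18 by 141, exons of Cct7 overlapped 1700040I03Rik by 214 and exons of Cct8 overlapped Usp16 by 193. As the library protocol is not stated to keep the strand, reads from these bases cannot be assigned to either gene. Each overlap makes up at most 11.4% of the annotated exon bases of the member, and the mean levels of the overlapping genes were 0.346 RPKM for Acat3, 9.09 for 1700040I03Rik and 11.2 for Usp16.

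The ring subunits were among the most abundant transcripts of these motor neurons, and their levels were similar to each other but not equal. Cct7, the eta subunit, stood highest in all 4 libraries, at 246 and 239.9 RPKM in WT and 268 and 253 RPKM in G85R. Cct4, the delta subunit, was lowest in all 4, at 82.3 and 77.1 RPKM in WT and 79.7 and 72.6 RPKM in G85R. The other ring subunits fell between, and none of their values reached down to a value of Cct4 or up to a value of Cct7.

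**Figure D1:**
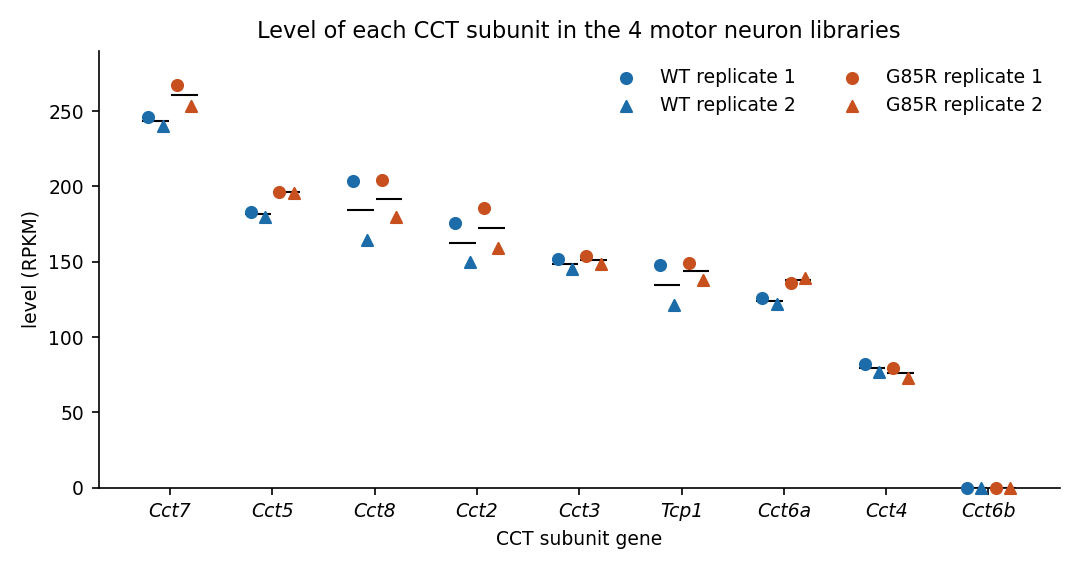
Level of each CCT subunit gene in RPKM (vertical axis) in the 4 libraries, with genes ordered by their mean; circles and triangles are replicates 1 and 2, blue is WT, orange is G85R, and short lines are the means of each genotype (n = 2). Cct7 is highest and Cct4 lowest of the 8 ring subunits in every library, and Cct6b lies at the axis with at most 0.158 RPKM.

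Cct5, the epsilon subunit, was at 183 and 179.9 RPKM in WT and 197 and 195 RPKM in G85R. Cct8, the theta subunit, was at 204 and 164 RPKM in WT and 204 and 179.7 RPKM in G85R. Their means over the 4 libraries, 189 ± 8.48 and 188 ± 19.4 RPKM (SD, n = 4), could not be ordered, as each was above the other in 2 of 4 libraries. Cct2, the beta subunit, followed at 175 and 150.0 RPKM in WT and 186 and 159 RPKM in G85R, and Cct3, the gamma subunit, at 152 and 145 RPKM in WT and 154 and 148 RPKM in G85R. Tcp1, the alpha subunit and the first member to be named, was at 148 and 121 RPKM in WT and 149 and 138 RPKM in G85R. Cct6a, the common zeta subunit, was at 126 and 122 RPKM in WT and 136 and 139 RPKM in G85R. Neighbors in this order from Cct5 down to Cct6a overlapped in their ranges. Within a library, however, Cct8 exceeded Cct2, Cct2 exceeded Cct3, and Cct3 exceeded Tcp1 in 4 of 4 libraries, whereas Tcp1 and Cct6a changed places, each being higher in 2 of 4.

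The steps at both ends of the order were larger than the spread between libraries. Cct7 exceeded Cct5 by 1.33-fold and Cct6a exceeded Cct4 by 1.68-fold, without overlap of their ranges. Among all 27189 genes, 216 had a higher mean than Cct7 and 1017 a higher mean than Cct4. Relative to the median ring subunit of the same library, Cct7 was at 1.51 to 1.65 and Cct4 at 0.469 to 0.522.

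Cct4 stayed lowest whether or not transcript length and shared sequence entered the level. It was covered by 3850 to 4497 estimated reads per library, the fewest of the ring subunits, and Cct7 by 18098 to 18878, the most. The RPKM of 1 read, which falls as the transcript length used by the authors grows, differed by only 1.43-fold between the shortest (Cct5) and the longest (Cct7) of the 8. With the lengths left out, Cct7 still had 4.05 to 4.72 times the estimated reads of Cct4. Divided by its share of unique windows, Cct4 was at 78.6, against 130.7 for Cct6a.

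The levels of the ring subunits were compared with those of other complexes in which subunits are needed in equal numbers. The coefficient of variation over the 8 ring subunits was 30.3% to 32.5% in the 4 libraries, and the highest subunit was 2.99 to 3.49 times the lowest. The 6 subunits of prefoldin had a coefficient of variation of 52.7% to 59.4%, from a mean of 38.1 RPKM for Pfdn4 to 141 for Pfdn2. The 6 ATPases of the 19S proteasome had 51.8% to 57.3%, from 81.2 RPKM for Psmc1 to 348 for Psmc5. Of the windows of Psmc1, 91.4% were unique, but only 44.7% within 2 mismatches, so that its low value is uncertain. The spread of the ATPases was not computed without Psmc1.

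The 14 subunits of the 20S proteasome core spread far more, with a coefficient of variation of 82.3% to 84.6%, from 1.99 RPKM for Psma5 to 351 for Psmb4. In that complex, however, the share of unique windows moved with the level. The 5 subunits with the lowest levels, Psma4, Psmb5, Psma3, Psmb3 and Psma5, were those with 54.1% to 74.0% unique windows. Among the 9 core subunits with at least 90% unique windows, a limit set after the data were seen, the coefficient of variation was 34.8% to 38.5%. The set of 8 ring subunits was not filtered in this way, and Tcp1 at 89.9% falls just under that limit; the 7 others had a coefficient of variation of 32.0% to 33.9%. By this coefficient, the ring subunits spread less in all 4 libraries than prefoldin, the 19S ATPases and the 9 core subunits, with or without Tcp1. By the ratio of the highest to the lowest subunit they did not stand apart from the 9 core subunits, at 3.07 to 3.36 compared with 2.99 to 3.49 for CCT, while prefoldin was at 3.57 to 4.44 and the ATPases were at 3.94 to 4.44. Between genotypes, limma and the log-linear test called 0 of the 14 core subunits and 0 of the 6 ATPases. None had an unadjusted p under 0.05 by limma, and their median log2 fold changes were 0.11 and 0.05. Over all tested genes, limma called 0.642% and gave 11.0% an unadjusted p under 0.05. The log-linear test called 0.228% of all 27189 genes. In lists this small, a count of 0 is near these shares, and nothing is read from it. The spreads above are comparisons of different numbers of genes in the same libraries, and no test was made of them.

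**Figure D2:**
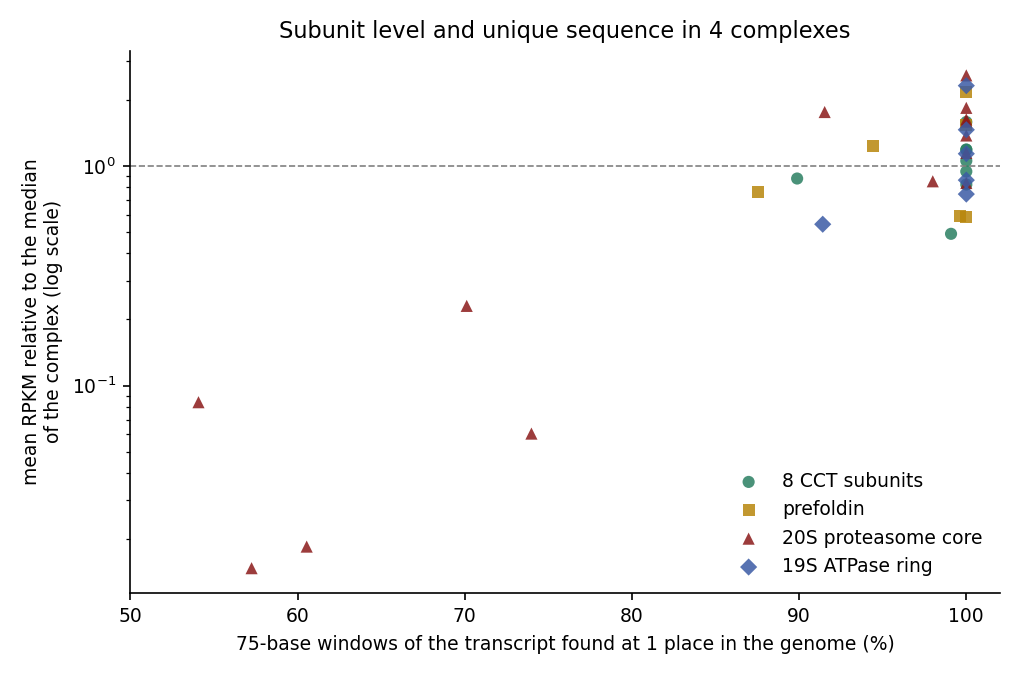
Mean RPKM over the 4 libraries relative to the median subunit of the same complex (vertical axis, log scale) against the percentage of 75-base transcript windows without a copy in the genome outside their own gene (horizontal axis), with 1 point per subunit gene of CCT, prefoldin, the 20S proteasome core and the 19S ATPase ring. All CCT points lie at or above 89.9%, spread around the dashed line of the median with Cct4 lowest and Cct7 highest. The 5 points of the 20S core at 54.1% to 74.0% lie far below that line.

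Cct6b, the zeta variant known mainly from testis, was close to absent. It was listed at 0.0383 and 0.0360 RPKM in WT and 0.126 and 0.158 RPKM in G85R, from an estimated 2, 2, 6 and 8 reads. Both G85R libraries were above both WT libraries, but the WT values rest on fewer than 3 reads, so that no fold change was computed. The mean of Cct6b was under the minimum of 1 RPKM set for testing, and it is the only member that was not tested. Cct6a stood at 130.7 RPKM on average, so that the zeta transcripts in these cells were almost entirely those of Cct6a.

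The comparison of genotypes asked whether presymptomatic expression of a misfolding SOD1 went with a change in the genes of this folding machine. None of the 8 tested members changed by limma on log2(RPKM + 0.1), at a Benjamini-Hochberg adjusted p under 0.05, when 0.642% of all 11530 tested genes did. None had an unadjusted p under 0.05 either, beside 11.0% of the tested genes, and the log-linear likelihood ratio test called 0 members, beside 0.228% of all 27189 genes. With 8 genes, a count of 0 is near each of these shares. At 2 libraries against 2, the smallest two-sided p of an exact permutation test is 0.333, so that a call of 1 gene leans on the variance that limma borrows from other genes.

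The differences of the members were small, with 7 of 8 higher in G85R and 1 lower, beside 5218 and 6312 of all tested genes. Cct6a showed the largest difference, from 124 ± 2.72 to 138 ± 2.14 RPKM (SD, n = 2), a log2 fold change of 0.15 ± 0.09 (SE) with an adjusted p of 0.623 by limma. Cct5 went from 181 ± 2.23 to 196 ± 0.812 RPKM, a log2 fold change of 0.11, and Cct7 from 243 ± 4.49 to 260.4 ± 10.2 RPKM, a log2 fold change of 0.10. In these 3 genes, both G85R libraries were above both WT libraries. That makes 3 of 8 members, beside 17.3% of all tested genes, while no member had both G85R libraries below both WT libraries, beside 23.9% of all tested genes.

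Genotypes overlapped in the other 5 ring subunits. Tcp1 was at 135 ± 18.9 and 144 ± 8.01 RPKM in WT and G85R, Cct2 at 163 ± 17.9 and 172 ± 19 RPKM, Cct8 at 184 ± 27.8 and 192 ± 17.2 RPKM and Cct3 at 148 ± 4.79 and 151 ± 4.17 RPKM. Cct4 was the only one with a lower mean in G85R, at 79.7 ± 3.70 in WT and 76.1 ± 4.99 RPKM in G85R, a log2 fold change of -0.07. In each of these 5 genes, the difference of the means was smaller than the larger of both SDs.

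The precision of these values bounds how large a difference could have gone unseen. The 95% intervals of the fold change in single members reached from 0.806 at the lowest (Cct4) to 1.31 at the highest (Tcp1), all of them including 1. The median log2 fold change of the 8 ring subunits was 0.09, beside -0.02 for all tested genes. This median depends on a single library, as it was -0.02 without WT replicate 2.

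**Figure D3:**
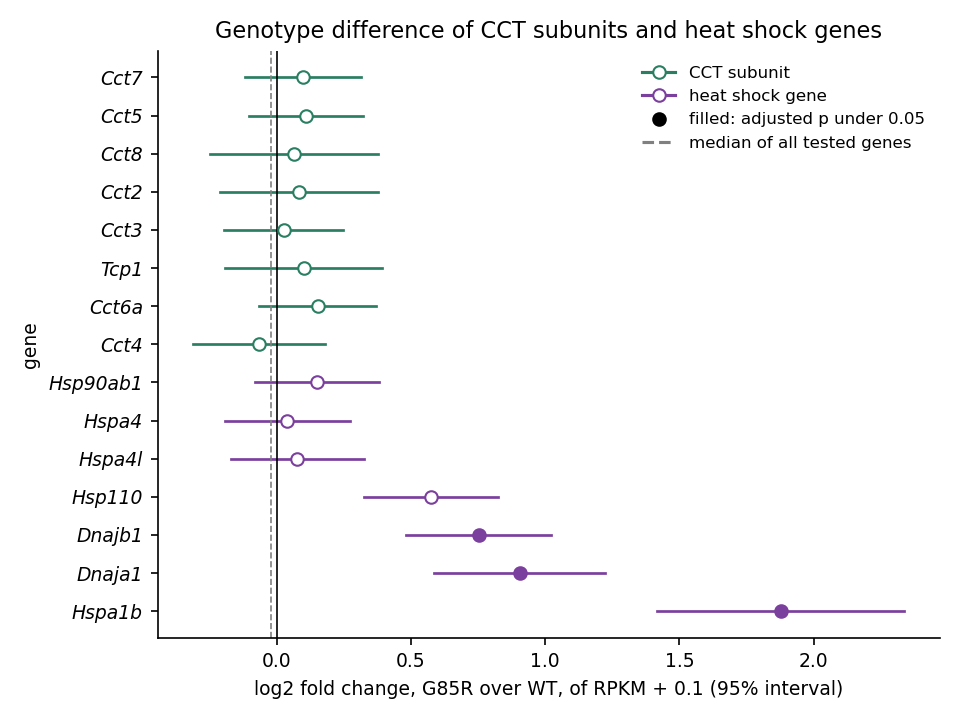
Log2 fold change of RPKM + 0.1 in G85R over WT (horizontal axis) for the 8 ring subunits and 7 heat shock genes (vertical axis), with bars for the 95% interval of limma; filled points passed an adjusted p of 0.05 and the dashed line is the median of all tested genes, -0.02. The intervals of all 8 ring subunits include 0, while those of Hsp110, Dnajb1, Dnaja1 and Hspa1b lie above it.

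The libraries of a genotype differed in the same direction over nearly all ring subunits. WT replicate 1 was above WT replicate 2 in 8 of 8, and G85R replicate 1 was above G85R replicate 2 in 7 of 8, with Cct6a as the exception. The largest gaps on the log2 scale were 0.31 for Cct8 in WT and 0.23 for Cct2 in G85R, and the medians over the 8 were 0.08 and 0.10. Over all tested genes, 49.4% were higher in replicate 1 in WT and 54.2% in G85R, with median log2 ratios of 0.00 and 0.02. Animals of the same genotype thus differed in Tcp1, Cct2, Cct3, Cct4 and Cct8 by more than the means of the genotypes did, and in Cct5, Cct6a and Cct7 by less. The sum of the 8 ranged from 1199 to 1316 RPKM in WT and from 1285 to 1373 RPKM in G85R, with overlap.

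The composition of the summed level was then compared, since shares do not depend on how libraries are scaled. Cct7 made up 19.4% ± 0.915 of the sum in WT and 19.6% ± 0.152 in G85R (SD, n = 2), against 12.5% for equal shares, and Cct4 made up 6.34% ± 0.122 and 5.73% ± 0.108. The share of Cct4 was 6.25% and 6.42% in the WT libraries and 5.80% and 5.65% in the G85R libraries, without overlap. The share of Cct3 was also lower in both G85R libraries, at 11.2% and 11.5% compared with 11.5% and 12.1% in WT, although the nearest values were almost equal (11.53% and 11.54%). The other 6 shares overlapped between genotypes. For Cct4 and Cct3, the exact permutation test gave a two-sided p of 0.333, the smallest that this design allows, and the lowest adjusted p over the 8 shares was 1. Equality of the shares between genotypes was not shown either, as the test could not have passed the threshold.

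**Figure D4:**
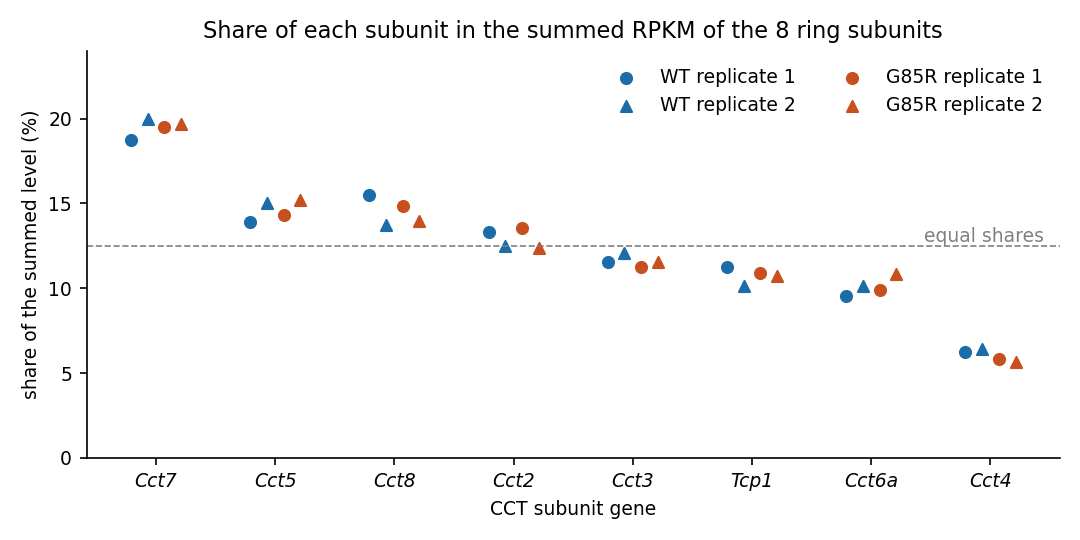
Share of each ring subunit in the summed RPKM of the 8 (vertical axis, percent) in the 4 libraries, with WT in blue, G85R in orange, circles for replicate 1 and triangles for replicate 2; the dashed line marks equal shares. Cct4 takes 5.65% to 6.42% and Cct7 18.7% to 20.0% of the sum in every library.

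Genes that work with CCT were taken from lists of its cofactors and substrates, and few of them were called between genotypes. None of the 6 prefoldin genes was called, their median being 0.06 on the log2 scale and the largest value 0.21 for Pfdn2. None of the 3 tested phosducin-like cofactors, which bind CCT and modulate its folding of substrates, was called, with a median of 0.09. Pdcl3 was the most abundant of them, at a log2 fold change of 0.24. The 6 tubulin cofactors, which assemble the tubulin dimer after CCT has folded its parts, had a median of -0.05 and 0 calls. Tbcb was the most abundant, with a log2 fold change of 0.10. In these 3 lists, no gene had an unadjusted p under 0.05 by limma and the log-linear test called 0. Over all tested genes, limma called 0.642% and gave 11.0% an unadjusted p under 0.05, and the log-linear test called 0.228% of all genes. In lists this small, a count of 0 calls is near these shares, also in the later lists with 0 calls, and nothing is read from it.

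Genes related to CCT or to its cofactors were compared in the same way. Mkks, a CCT-like subunit of the complex that assembles the BBSome, was listed at 19.6 to 23.8 RPKM with a log2 fold change of -0.02, and Bbs12 was below the minimum for testing. The mitochondrial chaperonin genes Hspd1 and Hspe1 were listed at 2.57 to 5.58 RPKM, with log2 fold changes of 0.21 and 0.62, 0 calls by either test and 1 unadjusted p under 0.05. Only 55.7% and 72.7% of their windows were unique, so that their listed levels cannot be set beside those of CCT. In the R2TP complex and its prefoldin-like partners, which assemble large enzymes, 6 of 7 genes were tested and 0 called by either test, with a median of -0.08. Ruvbl2 had the largest difference of that list, -0.35, with the only unadjusted p under 0.05 and an adjusted p of 0.321 by limma.

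Actin and tubulin genes, which encode substrates of CCT, ranged widely in level. Of 6 actin genes, 5 were listed under 1 RPKM in every library and were not tested. Only 10.6% of the windows of Actg1, among these 5, were unique, so that its low value is uncertain. Some tubulin genes also had few unique windows, with 24.7% in Tuba1b, so that the range of levels is in part uncertain. Actb, the only actin gene tested, was at 353 and 375 RPKM in WT and 453 and 370.1 RPKM in G85R, with overlap and a log2 fold change of 0.17. The neuronal tubulin Tubb3 was at 1224 and 1431 RPKM in WT and 1344 and 1435 RPKM in G85R. Tubb4 was higher in both G85R libraries, at 828 and 831 RPKM compared with 650.4 and 759 RPKM in WT, a log2 fold change of 0.24 with an adjusted p of 0.467 by limma. The log-linear test, which takes the variance of a gene from its level and not from the spread between animals, called Tubb4 at an adjusted p of 0.00357, and the other alternatives did not.

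Of the 12 tested tubulin genes, 9 were higher in G85R and 3 lower, with a median of 0.13. Over all 11530 tested genes, 5218 were higher and 6312 lower. By limma, which called 0.642% of all tested genes, 1 of the 12 rose. This was Tubb2b, a tubulin of developing neurons, at 2.85 and 2.61 RPKM in WT and 6.33 and 5.45 RPKM in G85R, a log2 fold change of 1.08 with an adjusted p of 0.0462 by limma. The call was lost without WT replicate 2 (adjusted p = 0.0719, limma) or without G85R replicate 1 (adjusted p = 0.0598, limma). It was also lost with no filter on low values, with quantile normalization and without the trend of the variance, at adjusted p of 0.361, 0.0529 and 0.0556 by limma, and the log-linear test gave an adjusted p of 1. Only 56.3% of the windows of Tubb2b were unique, so that its level is uncertain. Among WD40 proteins folded by CCT, 12 of 14 were tested and 0 called by either test, with a median of -0.07. Gnb1, a G protein beta subunit, had the only unadjusted p under 0.05, with a log2 fold change of 0.27 and an adjusted p of 0.341 by limma.

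Of 12 tested genes of the cytosolic heat shock response, 3 rose and 0 fell by limma, beside 0.642% of all tested genes called. The median of the 12 was 0.45 on the log2 scale. In all, 11 were higher in G85R, beside 5218 of all 11530 tested genes. The exception was Hsf1, the heat shock factor itself, at 17.0 and 23.2 RPKM in WT and 14.6 and 16.7 RPKM in G85R, a log2 fold change of -0.35 with an adjusted p of 0.525 by limma. The log-linear test also called 3 of the 12, of which Dnajb1 alone was among the 3 called by limma, the others being Hsp110 and Hspa8. Dnajb1, a J-domain protein of the Hsp70 machine, rose from 42.8 and 48.0 to 81.0 and 72.3 RPKM, a log2 fold change of 0.75 (adjusted p = 0.0489, limma). Dnaja1, of the same family, rose from 23.1 and 18.4 to 39.0 and 38.4 RPKM, a log2 fold change of 0.91 (adjusted p = 0.0480, limma). Of the windows of Dnaja1, 79.2% were unique, and 68.8% within 2 mismatches. Hspa1b, an inducible Hsp70, rose from 0.986 and 1.29 to 4.40 and 4.44 RPKM, a log2 fold change of 1.88 (adjusted p = 0.0128, limma). Hspa1b has a near-identical copy, Hspa1a, and only 44.2% of its windows were unique, so that its value is uncertain. Its call was lost with no filter on low values (adjusted p = 0.305, limma) and by the log-linear test (adjusted p = 1), which also did not call Dnaja1 (adjusted p = 0.247). Without WT replicate 1 or G85R replicate 1, the adjusted p of Dnajb1 was 0.0691 or 0.0995 by limma, and without WT replicate 2 that of Dnaja1 was 0.0608.

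Hsp110, which recharges Hsp70 with ATP, was at 175 and 151 RPKM in WT and 245 and 239.6 RPKM in G85R, a log2 fold change of 0.57 that missed the threshold (adjusted p = 0.0899, limma). It passed with a replicate block at an adjusted p of 0.00257, by the log-linear test, whose variance does not come from the spread between animals, and without WT replicate 1 at 0.0485 by limma, and its adjusted p ranged from 2.47e-05 to 0.519 over the alternatives. The relatives of Hsp110 had log2 fold changes of 0.04 for Hspa4 and 0.08 for Hspa4l. The genes of cytosolic Hsp90 had 0.15 for Hsp90ab1 and 0.25 for Hsp90aa1, of which only 33.0% of windows were unique, and none of these 4 genes was called by either test. Whether the heat shock genes and the ring subunits differed in their response was not tested.

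Promoters were searched for the paired unit that the heat shock factor binds, because some subunits of CCT are known targets of this factor. The search covered the 250 bases before and 50 bases after each transcript start in RefSeq (GRCm38.p6), on both strands, for GAANNTTC or TTCNNGAA, and promoters of 8 members were found. Of these 8, 3 held the motif (Cct2, Cct5 and Cct6a), or 37.5%, compared with 17.0% of 27025 genes. Of the heat shock genes, Hsph1 (the RefSeq name of Hsp110), Hspa1a, Hspa1b, Dnaja1, Dnajb1, Hspa4, Hspa4l and Hsp90ab1 were searched. Promoters of 7 were found, all but that of Hsp90ab1. Of these, 4 held the motif (Hsph1, Hspa1a, Hspa1b and Dnaja1), while those of Dnajb1, Hspa4 and Hspa4l did not. The other genes of the heat shock list, such as Hsf1, Hsp90aa1 and Hspa8, were not searched, so that 4 of 7 is not the share of that list. Of the heat shock genes with the motif, limma called Hspa1b and Dnaja1 but not Hsph1 or Hspa1a, and it called no member. Dnajb1, also called by limma, held no motif. The sites upstream of the start are shown for both groups, apart from that of Hspa1a, whose bases equal those of Hspa1b. The motif is in capitals and read along the strand of the gene:
Cct2, chr10:117063399-117063428, minus strand, 42 bases upstream: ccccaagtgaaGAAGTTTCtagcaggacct
Cct5, chr15:31601862-31601891, minus strand, 34 bases upstream: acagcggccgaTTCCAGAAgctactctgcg
Hsph1, chr5:149636351-149636380, minus strand, 33 bases upstream: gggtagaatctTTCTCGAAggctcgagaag
Hspa1b, chr17:34959324-34959353, minus strand, 104 bases upstream: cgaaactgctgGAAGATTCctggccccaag
Dnaja1, chr4:40722333-40722362, plus strand, 124 bases upstream: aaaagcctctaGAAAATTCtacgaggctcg
The site of Cct6a begins 24 bases after its start. Cct2, Cct5 and Dnaja1 have several starts in RefSeq, and the motif lay in only one of their promoters each. The CCAAT box, searched as CCAAT or ATTGG, was found in 5 of the 8 promoters (Tcp1, Cct3, Cct6a, Cct6b and Cct7), or 62.5%, compared with 41.1% of all genes. Of the members with the motif of the heat shock factor, Cct6a and Cct5 had the largest log2 fold changes of all members, 0.15 and 0.11, and Cct2 had 0.08, while the highest without it was 0.10. None of these was called, and nothing is read from their order. A match is a description of the letters, and a promoter without a match says only that these letters are not in the window searched.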

How the data were processed

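Motor neuron RNA of 2 WT and 2 G85R mice was analysed, 1 library per animal. The authors mapped 75-base reads with Bowtie 0.12.3 to mm9 (NCBIM37) and splice junctions, per the labels' processing notes and the study's methods, and quantified genes with Cufflinks; the deposited values are RPKM, scaled by uniquely mapped reads, also given with 1 read added. No counts were used. The difference between both values is the RPKM of 1 read (median 0.0195 to 0.0226), from which reads were estimated; they are not exact counts, and no counting interval was computed.

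The 11530 genes whose RPKM averaged 1 or more were tested between genotypes on log2(RPKM + 0.1) with limma 3.58.1 under R 4.3.3 (lmFit, then eBayes with its trend option), and a call needed a Benjamini-Hochberg adjusted p below 0.05 over all of them. Fold changes on this scale understate those of low genes. Shares were tested by exact permutation. The p-values of limma measure the spread between animals, steadied by that of other genes. The study's log-linear likelihood ratio test was run as an alternative, by fitting a Poisson model to rounded values of the RPKM that includes 1 extra read, for all 27189 genes; it sets the variance of a gene equal to its fitted value, so that its p-values do not measure the spread between animals. The scripts were tested on simulated data.

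For unique windows, every 75-base window of 1 transcript per gene (gencode vM1, longest coding sequence) was searched in NCBIM37 outside its own gene. Loci come from that annotation and promoters from RefSeq. Python 3.11.15 was used for the remaining steps (scipy 1.17.1 for permutations, pandas 2.3.3, numpy 2.4.6, numba 0.67.0 for the window search, matplotlib 3.10.9 for drawing).

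All 9 members were named, and from each list the 4 most abundant genes or fewer plus any gene called. Other genes were named after their values were seen. These were Psma4, Psmb5, Psma3, Psmb3, Psma5, Pfdn4, Psmc1, Actg1, Tuba1b, Hspa1a, Hsf1, Hsp90aa1, Hspa8, Hbb-b1, the single glial markers and the neighboring genes. Members and lists were chosen with earlier results of these data known. The alternatives were other pseudocounts, filters, scalings, variance models, a replicate block, summed entries and leaving out each library. Correcting levels for unique windows, or keeping subunits with at least 90% of them, was chosen after the data were seen. The splicing and qRT-PCR measurements of the study were not analysed here.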

Additional observations from a re-analysis of the deposited data

How the results depend on the processing

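The number of members called was 0 under all 16 alternatives. Leaving out a library moved the median log2 fold change of the 8 ring subunits between -0.019 (without WT replicate 2) and 0.15, and the coefficient of variation of the ring subunits between 31.6% and 32.3%, from 31.8%. Dividing levels by the share of unique windows gave 30.9%, or 32.9% within 2 mismatches. With 1 library left out, the lone library of its genotype is assumed to vary like the others.

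The replicate block treats libraries with the same number as pairs. The labels do not say what libraries with the same number share, so that whether they are pairs is not known; deviations of the libraries numbered 1 correlated at r = 0.22 over genes. The block left members called at 0, gave Cct6a its lowest adjusted p of 0.366, and raised the calls over the whole table from 74 to 527.

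Other settings also moved that count, to 112 with no filter, 17 at a mean RPKM of at least 5, 39 with quantile normalization, 49 without the trend, 115 without WT replicate 1, 118 without G85R replicate 1 and 189 without G85R replicate 2.

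The signs of several small differences turned when a library was left out. The log2 fold change then ranged from -0.044 to 0.24 for Tcp1, from -0.030 to 0.19 for Cct2, from -0.0070 to 0.059 for Cct3, from -0.13 to 0.00099 for Cct4, from -0.090 to 0.22 for Cct8, from -0.019 to 0.10 for Hspa4, from -0.0017 to 0.16 for Hspa4l and from -0.044 to 0.18 for Tubb3. WT replicate 2 gave the negative values of Tcp1, Cct2, Cct3, Cct8, Hspa4 and Hspa4l when left out, and G85R replicate 1 those of Cct2, Cct3 and Cct8. Cct3 also turned, to -0.016, with quantile normalization. Other named genes kept their sign over these fits but moved by more than 1.5 times, from 0.085 (without G85R replicate 1) to 0.34 (without G85R replicate 2) for Pfdn2, from 0.041 (without WT replicate 2) to 0.45 (without WT replicate 1) for Pdcl3, from 0.025 (without G85R replicate 1) to 0.32 (without G85R replicate 2) for Actb, from 0.042 to 0.16 for Tbcb, from 0.13 to 0.35 for Tubb4, from 0.075 to 0.23 for Hsp90ab1, from 0.079 to 0.43 for Hsp90aa1, from -0.57 to -0.12 for Hsf1 and from 0.059 to 0.14 for Cct7. The cause was not tested. Dnajb1 lost its call under 7 alternatives, Dnaja1 and Tubb2b under 6 each and Hspa1b under 2.

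The 2 libraries per genotype limit the precision, and differences of up to 1.31-fold lie within the 95% intervals of the members.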

Other observations

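Hspa8, the constitutive Hsp70 and one of the 12 heat shock genes, was listed at 0.837 and 0.709 RPKM in WT and at 1.73 and 82.9 RPKM in G85R, and was chosen for mention after its values were seen. Only 30.6% of its windows were unique. Its level in G85R rests on a single library, and limma gave an adjusted p of 0.417. The median of the heat shock list, which includes it, was 0.45.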
